A study of Homo sapiens with 6 samples.

Results

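The DDX and DHX genes encode RNA helicases, enzymes that use ATP to open RNA duplexes and to remodel complexes of RNA and protein. They were taken as every gene symbol of the count table that starts with DDX or DHX followed by a digit, leaving out DDX58, DHX58 and DDX60. This gave 56 genes of 23228, of which 41 were DDX and 15 DHX genes. They were picked because DHX genes leaned lower in the comparison described here. Each member's difference between the groups, and every count or median made from those differences, is therefore a description that carries no test. Adjusted p-values of members are given below only to show how a call depended on single libraries or settings, and no claim rests on them. The cells were U2OS, a human osteosarcoma cell line, and their RNA was taken 48 hours after transfection with a scrambled control siRNA (3 libraries) or with siRNAs against ALKBH5 (3 libraries), an enzyme that removes the methyl mark of N6-methyladenosine from RNA. All 6 libraries came from this 1 line grown in serum, and every control had also been transfected with an siRNA, with the same lipid reagent. The labels give neither the siRNA sequences nor a rescue, and they do not say whether replicates were separate cultures. A p-value here thus reflects how far these 6 libraries vary, and that variation may be technical.

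DDX proteins are named for the Asp-Glu-Ala-Asp motif of the DEAD box, and DHX proteins for the related Asp-Glu-Ala-His motif of the DEAH box. Both motifs bind the metal ion and the phosphates of ATP. DEAD-box enzymes pry apart short local duplexes, whereas many DEAH-box enzymes move along a single strand and pull, as in the spliceosome, where they drive the steps of intron removal. Proteins with a G-patch domain switch on several DEAH-box enzymes, and proteins shaped like eIF4G do so for several DEAD-box enzymes.

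The codons of this motif differed between the families in the genes where the search found it. A few are shown here for genes whose levels are described below. Each line holds 30 bases of the GENCODE 29 coding sequence, 5′ to 3′, with the 12 bases of the motif in capitals.
DDX1: ctggtcctgGATGAAGCTGATgggcttctt
DDX5: cttgtccttGATGAAGCAGATagaatgctt
DDX6: atagtattgGATGAGGCAGATaagttgctg
DDX10: ttagttcttGATGAAGCAGATagaatcttg
DDX18: ctggttattGATGAAGCTGATcgtatcttg
DDX42: cttgtgtttGATGAAGCAGATcgaatgttt
DDX21: gttgtcctgGATGAAGTGGACcagatgttg
DHX40: attattttgGATGAAGCCCATgaaagaact
DHX8: atcatgttgGACGAGGCACATgagaggaca
DHX38: atcatcatgGACGAGGCCCACgagcgctcc
DHX36: atcgtacttGATGAAATCCATgaaagaaat
DHX9: gtaattgtaGATGAAATACATgaaagagat
The first 6 lines spell the DEAD box, DDX21 the variant with valine in the third place, the lines of DHX40, DHX8 and DHX38 the DEAH box, and those of DHX36 and DHX9 the variant with isoleucine. The search took the motif in frame, followed 10 to 60 codons later by the codons of a Ser-Ala-Thr run. Of the 38 DDX genes with a coding transcript, 27 held the DEAD form, 2 (DDX21 and DDX50) the valine form, and in 9 neither was found with that run. Of the 15 DHX genes, 8 held the DEAH form, 2 the isoleucine form, and in 5 neither was found with that run. No DDX gene held a DHX form under this search and no DHX gene a DDX form. The genes without a hit may hold either form without that run, so the search does not sort them. The 2 motifs of a gene lay 31 to 37 codons apart in DDX genes and 32 to 37 in DHX genes. DHX coding sequences were longer, with a median of 1143 codons (703 to 1386) against 668 codons (427 to 1706) for DDX genes.

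Reads in genes numbered 18817181 to 23410007 per library. Levels are given as CPM, read counts scaled to each library's reads in genes with TMM factors. Before these factors are applied, 1 CPM rests on 18.8 to 23.4 reads. ALKBH5 itself had 138, 148 and 143 CPM in the scrambled libraries and 19.4, 16.2 and 15.7 CPM in the knockdown libraries (log2 fold change −3.06, SE 0.10, adjusted p = 1.6e-09, edgeR quasi-likelihood test), and in an exact 2-sided permutation test p was 0.1, the lowest value possible with 3 libraries a side. The change was wide over the transcriptome. Of 14504 genes tested, 61.6% passed an adjusted p of 0.05, with 30.8% higher and 30.8% lower, and in 67.4% the CPM ranges of both groups lay apart, here called groups that do not overlap. Of 8 bone and mesenchymal markers, VIM, SPARC and COL1A1 were abundant, and SP7 and BGLAP were below 1 CPM in the scrambled libraries. Their sum was 5383 to 5610 CPM in the scrambled and 4564 to 5342 CPM in the knockdown libraries, with VIM, SPARC and ALPL lower and COL1A1 and RUNX2 higher past the threshold. Of the leukocyte markers, PTPRC reached at most 1.62 CPM in any library and CD3E was listed at 0. Endothelial markers summed to 6.22 to 8.74 CPM in the scrambled and 1.37 to 2.41 CPM in the knockdown libraries, and epithelial markers to 504 to 597 and 551 to 583 CPM, mainly from KRT8 and KRT18. Within that overlapping sum KRT8 fell (log2 fold change −0.45), while KRT18 and the low CDH1 rose (0.71 and 1.45). Their part in the differences below was not tested.

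After the filter on low counts 51 of the 56 genes were tested, all 15 DHX and 36 of 41 DDX genes. The 5 others were DDX4, DDX25 and DDX53, which act in germ cells, the pseudogene DDX11L9 and the Y-linked DDX3Y, whose level is not given. DDX4, DDX53 and DDX11L9 were listed at 0 in every library, and DDX25 reached at most 2 reads in a library. Among tested genes 17 were lower and 6 higher past the adjusted p of 0.05, together 45.1% beside 61.6% of all genes. By family, 10 of 15 DHX genes were lower and 1 higher, and 7 of 36 DDX genes were lower and 5 higher. The median log2 fold change was −0.32 for DHX genes, 0.01 for DDX genes and 0.01 for all genes tested. When libraries were scaled by their totals alone the DDX median was −0.06, and that of all tested genes was −0.06 as well. The number of higher DDX genes was 8 without knockdown replicate 1.

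The DHX genes shifted by a small amount in most members, and 1 member shifted by far more. Their summed level was 1729, 1797 and 1814 CPM in the scrambled libraries and 1265, 1425 and 1362 CPM in the knockdown libraries, so every knockdown library lay below every control. The summed DDX level was 5095, 5152 and 5251 CPM against 4669, 5213 and 4954 CPM, and these groups overlapped. In bulk RNA, fewer cells with a transcript and less of it per cell cannot be told apart. Groups without overlap were found for 11 of 15 DHX genes, 10 of them lower, and for 16 of 36 tested DDX genes, 9 lower and 7 higher. Over all tested genes 33.9% were without overlap and lower, and 33.5% higher. The fitted log2 fold change was below 0 in 12 of 15 DHX genes and 17 of 36 DDX genes, beside 49.4% of all tested genes.

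**Figure D1:**
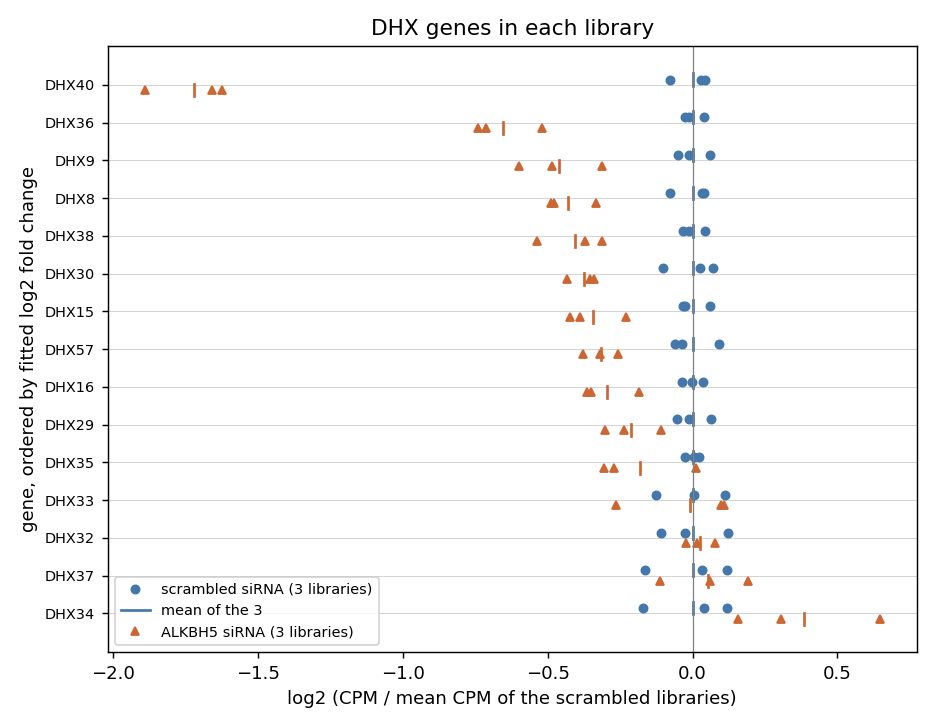
Level of each DHX gene in every library, as log2 of its CPM over the mean CPM of the 3 scrambled libraries (circles scrambled siRNA, triangles ALKBH5 siRNA, short bars the mean of 3). DHX40 sits far to the left of the other genes, 10 genes have all triangles left of all circles, and DHX34 has all triangles to the right.

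DHX40, a DEAH-box protein whose role is less well described, had the largest difference of any member. It measured 168, 166 and 155 CPM in the scrambled libraries and 52.8, 51.7 and 43.9 CPM in the knockdown libraries. The knockdown level was 30.3% of the control level (log2 fold change −1.72, SE 0.09), and the gap between the groups was many times the spread within either. The next DHX gene in size of difference was DHX36.

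DHX36 and DHX9 followed, the pair with the isoleucine form of the motif. DHX36 unwinds G-quadruplexes, four-stranded folds of guanine-rich RNA and DNA. It measured 87.3, 86.5 and 90.5 CPM in the controls and 53.7, 61.5 and 52.7 CPM in the knockdown (log2 fold change −0.65, SE 0.09). DHX9, or RNA helicase A, acts in transcription and on structured RNA and R-loops. It measured 340, 349 and 367 CPM against 233, 284 and 252 CPM (log2 fold change −0.46, SE 0.08). In both genes all controls were above all knockdown libraries, and knockdown replicate 2 was the highest of its group.

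The DEAH-box enzymes of splicing lay in a narrow band. DHX16 acts as the spliceosome is activated, DHX38 around the second step of splicing, DHX8 when the mature message is released and DHX15 when the intron lariat complex is taken apart. DHX8 measured 102, 102 and 94.4 CPM in the controls and 71.0, 79.0 and 71.5 CPM in the knockdown (log2 fold change −0.43, SE 0.08). DHX38 measured 133, 141 and 136 CPM against 94.2, 105 and 110 CPM (log2 fold change −0.40, SE 0.08). DHX15 measured 232, 233 and 248 CPM against 177, 203 and 182 CPM (log2 fold change −0.34, SE 0.08). These 3 genes and DHX16 (96.3 ± 2.47 against 78.4 ± 5.54 CPM, SD, n = 3 per group, log2 fold change −0.30) had groups that did not overlap. DHX35, also found in the spliceosome, overlapped (34.1 ± 0.586 against 30.1 ± 3.75 CPM, log2 fold change −0.18), with knockdown replicate 3 among the controls, and it passed the threshold without that library (adjusted p = 0.031, edgeR). The 5 DHX splicing genes thus ran from −0.43 to −0.18.

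The 4 DDX splicing genes were spread more widely. DDX42, a protein of the U2 snRNP, measured 213, 213 and 219 CPM in the controls and 107, 94.1 and 118 CPM in the knockdown, about 49.5% of the control level (log2 fold change −1.01, SE 0.09). The other 3 overlapped between groups. DDX41 stood at −0.21 and was called lower without knockdown replicate 3 (adjusted p = 0.016, edgeR). DDX46, the human Prp5, was at 0.02 and DDX23, the human Prp28 that loads the tri-snRNP, at 0.10. Of the 9 splicing helicases of both families, 5 were lower and none higher past the threshold (55.6% called beside 61.6% of all genes, of which 30.8% were lower), with a median log2 fold change of −0.30.

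Outside splicing the DHX genes differed in direction. DHX30, which associates with mitochondrial ribosome assembly, measured 176, 193 and 199 CPM in the controls and 140, 148 and 150 CPM in the knockdown (log2 fold change −0.38, SE 0.08). DHX57 was at −0.32 and DHX29, which helps ribosomes scan structured leaders, at −0.21. DHX33 and DHX37, both tied to ribosome production, were at −0.01 and 0.05, and DHX32 at 0.02, with overlapping groups in all 3. DHX34, a factor of nonsense-mediated decay, went the other way, with 31.3, 36.2 and 38.3 CPM in the controls and 43.6, 39.3 and 55.2 CPM in the knockdown (log2 fold change 0.39, SE 0.13). Its lowest knockdown library was just above its highest control. DHX34 missed the threshold without scrambled replicate 1 (adjusted p = 0.109), scrambled replicate 2 (adjusted p = 0.063) or knockdown replicate 3 (adjusted p = 0.096), in edgeR fits. DHX29 missed it in the same fits without scrambled replicate 1, 2 or 3 (adjusted p = 0.056, 0.14 and 0.066) and without knockdown replicate 1 or 3 (adjusted p = 0.157 and 0.095).

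**Figure D2:**
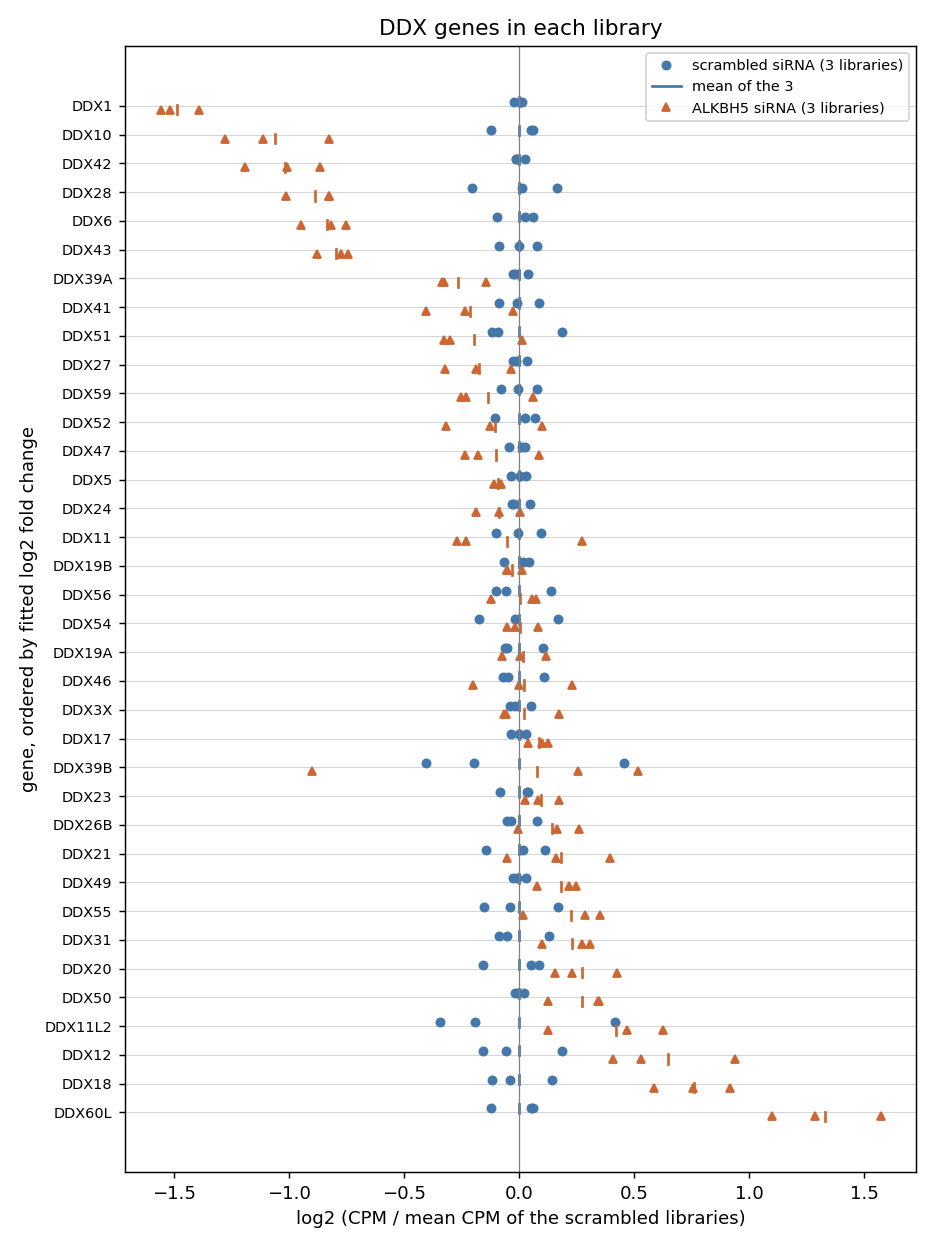
Level of each tested DDX gene in every library, as log2 of its CPM over the mean CPM of the 3 scrambled libraries (circles scrambled siRNA, triangles ALKBH5 siRNA, short bars the mean of 3). DDX1, DDX10, DDX42, DDX28, DDX6 and DDX43 form a separate group at the lower end, DDX12, DDX18 and DDX60L stand apart at the upper end, and the genes between them are within 0.41 of 0 in fitted log2 fold change.

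Most DDX genes differed little between groups, and a few differed by more than nearly all DHX genes. The lower ones past 1.5-fold numbered 6 and the higher ones 3, against 2 and 0 in the DHX family. Over all tested genes 18.7% were called and lower by that much, and 19.7% higher.

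DDX1, a subunit of the tRNA ligase complex that also shuttles RNA between compartments, had the largest difference in the DDX family. It measured 232, 237 and 238 CPM in the controls and 82.6, 90.1 and 80.3 CPM in the knockdown, 35.8% of the control level (log2 fold change −1.48, SE 0.08). The 3 control values lay within a few CPM of each other. Its group by role held 6 genes with a median log2 fold change of −0.27, among them DHX36 and DHX9 at −0.65 and −0.46. The other DDX genes of that group differed much less. DDX5, a cofactor of transcription, splicing and microRNA processing, measured 1180, 1157 and 1126 CPM against 1091, 1095 and 1070 CPM (log2 fold change −0.09, SE 0.07). Its groups did not overlap, but they lay close together. DDX17, the close relative of DDX5, measured 524, 513 and 500 CPM against 527, 549 and 559 CPM (log2 fold change 0.09, SE 0.07), so the pair leaned in opposite directions by small amounts. DDX20, a partner of SMN in snRNP assembly, measured 45.5, 53.8 and 52.6 CPM against 56.5, 68.0 and 59.4 CPM (log2 fold change 0.28, SE 0.10). It missed the threshold without scrambled replicate 1 (adjusted p = 0.147) or knockdown replicate 2 (adjusted p = 0.111), in edgeR fits.

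Translation and decay split in the same way. DDX6, which represses translation and links deadenylation to decapping in P-bodies, measured 173, 169 and 155 CPM in the controls and 94.1, 98.6 and 86.0 CPM in the knockdown (log2 fold change −0.84, SE 0.08). The lowest control exceeded the highest knockdown library by more than either group's spread. DDX3X, which helps ribosomes start on structured leaders, overlapped between groups, with 544 ± 17.9 against 553 ± 53.0 CPM (SD, n = 3 per group, log2 fold change 0.02). DDX3X and DDX3Y share sequence, as do DDX19A and DDX19B, DDX39A and DDX39B, and DDX11 and DDX12, so reads in these pairs are uncertain.

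The helicases of ribosome production were the largest group by role, with 16 tested genes, and had little net shift. They act on ribosomal RNA in the nucleolus. In this group 1 gene was lower and 2 were higher past the threshold (18.8% called beside 61.6% of all genes), and the median log2 fold change was 0.01. DDX10 was the lower one, with 47.4, 53.5 and 53.8 CPM in the controls and 21.3, 29.1 and 23.9 CPM in the knockdown (log2 fold change −1.06, SE 0.12). DDX18 went furthest up, from 154, 146 and 175 CPM to 238, 298 and 268 CPM (log2 fold change 0.76, SE 0.10). DDX50, the relative of DDX21, measured 70.2, 68.4 and 68.8 CPM against 75.6, 87.9 and 87.7 CPM (log2 fold change 0.28, SE 0.09), and missed the threshold without scrambled replicate 2 (adjusted p = 0.057, edgeR). DDX21, which senses and supports RNA polymerase I and II transcription, measured 391, 439 and 467 CPM against 417, 570 and 484 CPM (log2 fold change 0.18, SE 0.11). Its knockdown libraries spread more than its controls and overlapped them. DDX47 overlapped as well, at 169, 163 and 171 CPM against 143, 178 and 149 CPM (log2 fold change −0.10, SE 0.09). The remaining 11 genes, DDX24, DDX27, DDX31, DDX49, DDX51, DDX52, DDX54, DDX55, DDX56, DHX33 and DHX37, ranged from −0.19 (DDX51) to 0.23 (DDX31). Knockdown replicate 1 was the lowest of its group in 14 of the 16 genes and in 10 of the 15 DHX genes. Without it DDX21, DDX31 and DDX55 passed the threshold as higher (adjusted p = 0.025, 0.042 and 0.029, edgeR). Calls also appeared for DDX31 and DDX55 without scrambled replicate 3 (adjusted p = 0.044 and 0.047), for DDX27 and DDX47 as lower without knockdown replicate 2 (adjusted p = 0.016 and 0.031), and for DDX51 as lower without knockdown replicate 3 (adjusted p = 0.047). With the replicate number as a block DDX31, DDX55, DDX27 and DDX41 passed (adjusted p = 0.039, 0.029, 0.044 and 0.02, edgeR), and with library totals DDX27 and DDX41 (adjusted p = 0.018 and 0.038).

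Among the export helicases DDX39A, a partner of the TREX complex, measured 79.8, 80.1 and 83.4 CPM in the controls and 64.3, 64.8 and 73.5 CPM in the knockdown (log2 fold change −0.26, SE 0.08). It missed the threshold without knockdown replicate 1 (adjusted p = 0.063, edgeR). DDX19A and DDX19B, which release messages at the nuclear pore, stood at 0.02 and −0.03. The table gave only 6 to 16 reads per library to DDX39B, so its difference is not interpreted. EIF4A1, a gene that every cell uses, had no reads at all, so such low counts may not be the levels in the cells, and whether the authors' counting dropped reads of these genes was not tested.

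The other members past the threshold were scattered by role. DDX28, a helicase of mitochondrial ribosome assembly, measured 14.2, 16.5 and 18.3 CPM in the controls and 9.21, 8.10 and 9.22 CPM in the knockdown (log2 fold change −0.88, SE 0.14). DDX43, a germline and tumour antigen, measured 21.2, 19.0 and 20.1 CPM against 10.95, 11.8 and 12.03 CPM (log2 fold change −0.80, SE 0.11). Both had groups that were well apart. DDX60L, a relative of the interferon-induced DDX60, had the largest upward difference, from 19.3, 17.1 and 19.5 CPM to 39.9, 55.4 and 45.5 CPM (log2 fold change 1.33, SE 0.13). DDX12, a pseudogene named DDX12P in current annotation, measured 13.5, 12.6 and 16.01 CPM against 20.3, 18.7 and 27.0 CPM (log2 fold change 0.65, SE 0.15), while its relative DDX11, a DNA helicase of sister chromatid cohesion, was at −0.05 with overlapping groups. DDX59 was at −0.13. DDX26B, now INTS6L and no helicase, was at 0.14, and the pseudogene DDX11L2 at 0.41 with 1.59 ± 0.47 CPM in the controls.

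**Figure D3:**
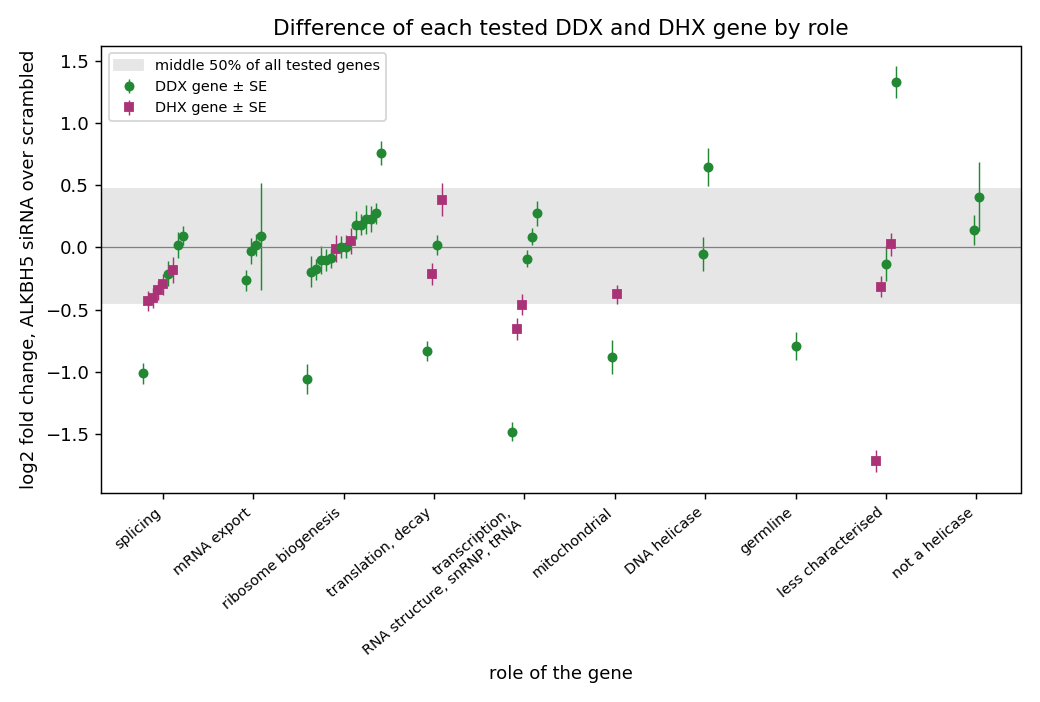
Fitted log2 fold change (ALKBH5 siRNA over scrambled siRNA, with SE) of the 51 tested genes, grouped by role, circles for DDX and squares for DHX genes, with the middle 50% of all 14504 tested genes shaded. The ribosome group centres on 0 apart from DDX10 and DDX18, the 5 squares of the splicing group lie between −0.43 and −0.18, and DDX1 and DHX40 are the lowest points.

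Per length, DDX5 was the most abundant helicase of the set in these cells. Levels per length are CPM divided by the kilobases of exon in GENCODE 29. In the scrambled libraries DDX5 stood at 417 ± 9.78 CPM per kb and DDX17 at 107 ± 2.52 (SD, n = 3), each clear of the next gene. Then came DDX47 (90.9 ± 2.35), DDX21 (86.2 ± 7.64), DHX9 (83.0 ± 3.29) and DDX1 (82.2 ± 1.10), DHX15 (79.3 ± 2.92) and DDX27 (75.3 ± 1.68). Neighbours in this run from DDX47 to DDX27 differed by no more than their summed SDs. The median over the 51 tested genes was 19.6 CPM per kb, 24.6 for DDX and 17.4 for DHX genes. In the knockdown libraries DDX5 and DDX17 kept the first and second place at 392 ± 4.87 and 114 ± 3.41 CPM per kb. DDX1 dropped from rank 6 to 15 (29.4 ± 1.79), DHX40 from 13 to 29 (13.5 ± 1.32) and DDX42 from 12 to 20 (24.5 ± 2.75), while DDX18 moved from 15 to 5 (70.6 ± 7.99).

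**Figure D4:**
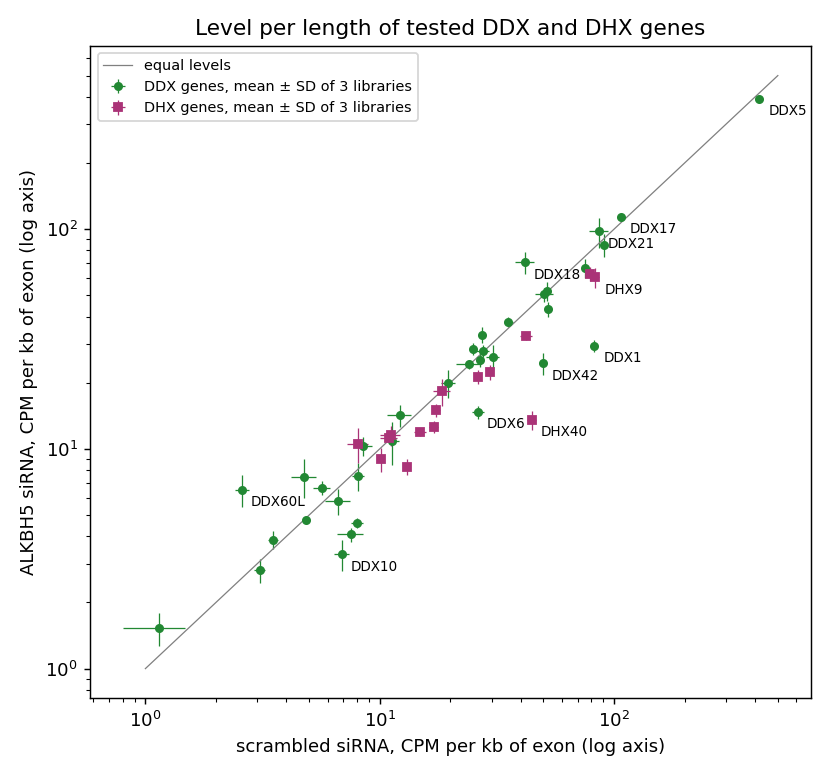
Level per kilobase of exon in scrambled (x axis) and ALKBH5 siRNA libraries (y axis), both log axes, mean ± SD of 3 libraries, for 50 tested DDX and DHX genes; DDX39B is left out because of its few reads. DDX5 and DDX17 lie at the top close to the line of equal levels, and DDX1, DDX42, DDX6, DDX10 and DHX40 lie well below it.

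RNA helicases with other names did not move as a group. Of 19 such genes with an entry, 17 were tested, and 3 rose and 3 fell past the adjusted p of 0.05 (edgeR, over all genes), a called share of 35.3% beside 61.6% of all genes, with a median log2 fold change of 0.02. EIF4A3, the DEAD-box core of the exon junction complex, fell from 146 ± 9.0 to 64.8 ± 3.59 CPM (SD, n = 3 per group), a log2 change of −1.17 with an SE of 0.08. SKIV2L2 and SKIV2L, the helicases that feed RNA to the nuclear and the cytoplasmic exosome, fell by 0.96 and 0.82 on the log2 scale. YTHDC2, a helicase that also reads N6-methyladenosine, rose from 28.6 ± 1.82 to 45.1 ± 2.58 CPM, a log2 change of 0.65. The translation helicase EIF4A1 was listed at 0 in all 6 libraries and is not interpreted. When libraries were scaled by totals alone, 6 of these genes were lower.

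Genes with a G-patch domain, only some of which are known activators of DEAH-box enzymes, were lower more often than higher. Of 21 G-patch genes, 13 fell and 2 rose (61.9% lower beside 30.8% of all genes), with a median log2 fold change of −0.28. AGGF1 fell from 87.2 ± 4.06 to 38.9 ± 2.35 CPM, a log2 change of −1.16 with an SE of 0.09. FTSJD2, the cap methyltransferase CMTR1, fell from 104 ± 1.28 to 48.0 ± 3.71 CPM, a log2 change of −1.12 with an SE of 0.09. GPATCH3 and the splicing regulator RBM10 fell by 1.15 and 0.83 on the log2 scale. NKRF was at −0.57 and TFIP11 at −0.27, both past the threshold. Elsewhere in the list ZGPAT was higher past the threshold at 0.29, while RBM17 (0.19), GPATCH2 (−0.07) and PINX1 (−0.10) did not pass it. The list was not sorted by the helicase each protein works with. It therefore does not show how the partners of DHX15 or of any other single enzyme moved. CHERP, of the U2 snRNP, rose from 53.3 ± 4.72 to 70.3 ± 7.51 CPM. The number of higher genes was 1 without scrambled replicate 1, 2 or 3 or without knockdown replicate 3.

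Partners of the DEAD-box enzymes went both ways, with 8 of 23 higher and 7 lower and a median log2 fold change of −0.10. These were 34.8% and 30.4% of the list, near the 30.8% of all genes in each direction. EDC3, a decapping activator that binds DDX6, fell from 64.8 ± 1.26 to 25.8 ± 0.86 CPM, a log2 change of −1.33 with an SE of 0.09, and the decapping factor DCP1A fell by 0.83 on the log2 scale, whereas the decapping enzyme DCP2 rose by 0.56. Around DDX6 itself, LSM14A and CNOT1 rose by 0.62 and 0.59, while LSM14B (−0.10), PATL1 (0.08) and EIF4ENIF1 (0.15) did not pass the threshold. In the exon junction complex, whose helicase EIF4A3 fell, CASC3 rose from 88.7 ± 1.87 to 160 ± 10.9 CPM, a log2 change of 0.85 and RBM8A from 25.2 ± 1.79 to 48.1 ± 4.34 CPM (log2 fold change 0.93). MAGOH, the partner of RBM8A in that complex, fell by 0.50, and its paralog MAGOHB was at −0.14 and did not pass the threshold. CWC22, which brings EIF4A3 to the spliceosome, fell by 0.50. DCP2, MAGOH, MAGOHB, CWC22, LSM14A, CNOT1, LSM14B, PATL1, EIF4ENIF1, NKRF, TFIP11, ZGPAT, RBM17, GPATCH2 and PINX1 were chosen after their values were seen.

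Genes of the TREX complex and message export, which work with DDX39A and DDX39B, fell in 8 of 13 cases and rose in 2 (61.5% and 15.4%, beside 30.8% of all genes each way), with a median log2 fold change of −0.29. ZC3H11A fell from 169 ± 15.5 to 94.5 ± 7.43 CPM, a log2 change of −0.84, THOC6 by 0.70 and the export adaptor THOC4, or ALYREF, by 0.50, while the export receptor subunit NXT1 rose from 19.9 ± 2.64 to 37.7 ± 1.84 CPM, a log2 change of 0.92. Without knockdown replicate 1 the lower genes numbered 5, and the higher ones numbered 1 without scrambled replicate 1 or 2 or knockdown replicate 2 or 3. Of 24 other spliceosome proteins 11 fell and 4 rose, with a median of −0.19. The called share was 62.5%, near the 61.6% of all genes, with 45.8% lower and 16.7% higher. SF3B2, of the U2 snRNP, fell from 357 ± 18.6 to 133 ± 5.55 CPM, a log2 change of −1.42 with an SE of 0.08, SNRNP40 by 1.08, U2AF1 by 0.76 and SF3B3 by 0.57. PRPF3, of the U4/U6 snRNP, rose from 61.2 ± 3.74 to 82.7 ± 5.94 CPM, a log2 change of 0.43 with an SE of 0.09. Whether any of these lists differed from the DHX genes was not tested.

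**Figure D5:**
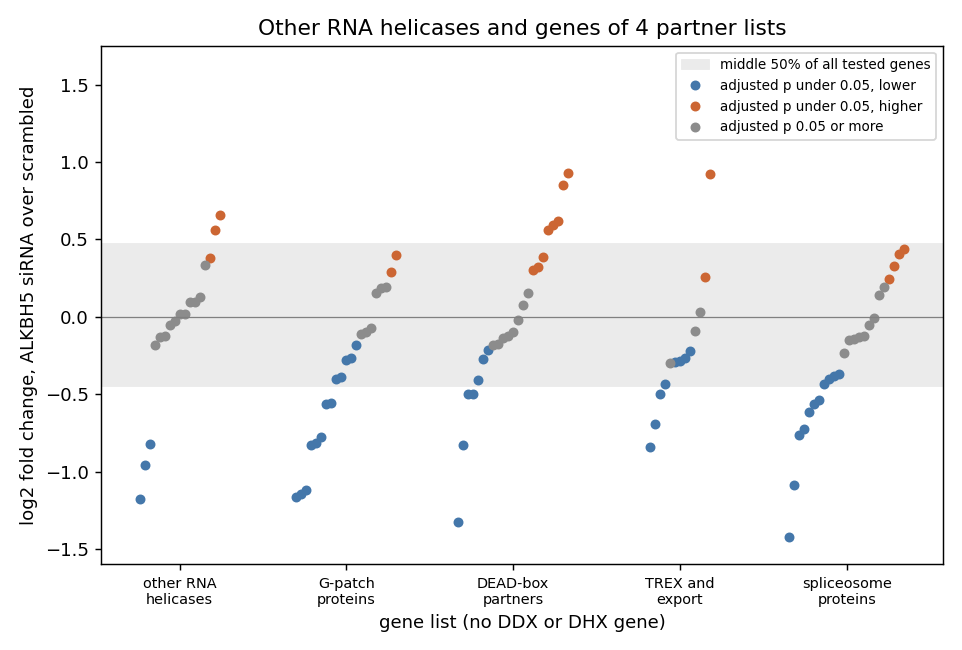
Fitted log2 fold change of each tested gene in the 5 lists of other RNA helicases, G-patch proteins, DEAD-box partners, TREX and export genes, and spliceosome proteins, coloured by whether it passed an adjusted p of 0.05, with the middle 50% of all tested genes shaded. The G-patch list has 13 lower and 2 higher genes, the other helicases 3 and 3.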

How the data were processed

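The deposited files hold whole-number counts of reads for each gene symbol, not normalised, and per the submitters' processing notes CASAVA 1.8.2, TopHat2, SAMtools, HTSeq and the genome build hg19 were used. Settings, gene annotation and strand setting: not given in the sources used here. For that reason reads of overlapping or antisense genes cannot be told apart. The series table and the sample files differed in 0 lines, and HTSeq's summary entries were left out of library sizes. Counts were fitted in edgeR 4.0.16 (R 4.3.3): filterByExpr, TMM, robust quasi-likelihood fit with group as its only term, 2-sided test, Benjamini-Hochberg adjustment over 14504 genes, threshold 0.05. A positive log2 fold change means higher with ALKBH5 siRNA. The fit was tested on simulated data in which 200 genes were changed. It recovered 62.7% of those changed 1.5-fold, 83.1% at 2-fold and 96.9% at 4-fold, with 11 false calls among 165. Far fewer genes were changed there than were called here, so the simulation does not test the scaling under so wide a change.

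Exon lengths and coding sequences came from GENCODE 29, a GRCh38 annotation used for names, lengths and sequences only. All 56 genes matched, DDX12 and DDX26B through synonyms in RefSeq, and the coding transcript was the longest. The members, the lists and the roles were chosen with earlier results of these data known. Per-library values are given for ALKBH5, for the 8 DHX and 12 DDX genes with the largest absolute log2 fold change among those whose average log2 CPM reached 2, and for the 5 genes with the highest level per length. From each list the up to 4 genes with the smallest adjusted p, and the first in each direction, are named. Replicates were distinct libraries (chi-square of paired counts over its degrees of freedom, 6.21 to 17.2). Alternatives were RLE scaling, library totals, no filter, at least 1 CPM in 3 libraries, DESeq2 1.42.0, a replicate block, and leaving out each library in turn.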

Additional observations from a re-analysis of the deposited data

Results flagged for a closer look

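Reads placed uniquely but outside genes, which no comparison above used, were 17.9% ± 0.66 of all uniquely placed reads with ALKBH5 siRNA (17.3% to 18.6%) and 15.3% ± 0.23 in the scrambled libraries (15.0% to 15.5%, SD, n = 3 per group). The share was above the control level in every knockdown library, and its part in the differences of the helicase genes was not tested.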

How the results depend on the processing

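The DHX median log2 fold change stayed between −0.35 and −0.28 when single libraries were left out and was −0.38 with library totals, while that of the DDX genes ranged from −0.05 to 0.05. With single libraries left out, lower DHX genes numbered 9 to 10, higher DHX genes 0 to 1, and higher DDX genes 4 to 8. In the same fits G-patch genes were higher in 1 to 3 cases, and TREX and export genes were higher in 1 to 2 and lower in 5 to 8. Library totals gave 0 higher DHX genes, 1 higher G-patch gene, 1 higher TREX gene and 6 lower among the other RNA helicases. They also moved the median log2 fold change of all tested genes to −0.06. RLE scaling and both filters left the DDX and DHX counts as they were, and DESeq2 gave 9 lower DHX genes, with DHX29 lost (adjusted p = 0.053). Of the tested members' single-gene values under the alternatives, 580 stayed on the same side of the threshold, 15 lost the call and 16 gained it. The direction of uncalled members near 0, such as DDX56, DDX3X, DDX46 and DDX11, changed under some alternatives. Same-numbered libraries of both groups deviated together in numbers 1 and 3 but not in number 2 (r = 0.39, 0.42 and 0.07 across genes). Scrambled 3 with knockdown 1 and scrambled 1 with knockdown 3 deviated in opposite ways (r = −0.43 and −0.32). The main fit did not take the numbers as pairs, and whether they mark a shared batch was not tested. With the replicate block 4865 genes were higher and 4895 lower, against 4471 and 4466 without it, and lower DDX genes numbered 9 and higher ones 7. Depth limits DDX39B most (SE 0.43 on the log2 scale) and then DDX11L2 (SE 0.28).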
